A study of Mus musculus with 16 samples.

Results

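The subject is the comparison of accessible chromatin in Morc1 knockout and Morc1 heterozygous male germ cells at E13.5, a stage in embryonic days, by ATAC-seq, an assay that cuts open DNA with a transposase and tags the cut sites for sequencing. The peak list of each genotype was compared with that of the other. A peak that met a peak of the other list by at least 1 bp was called shared, and the rest were called knockout-only or heterozygous-only, together private. On the 19 autosomes the lists gave 46968 distinct regions, of 102899 in the whole series: 30946 shared, 7620 knockout-only and 8402 heterozygous-only.

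The series holds 16 samples, 2 for each of 2 genotypes at 4 stages (E13.5, E16.5, and the postnatal stages P0 and P3), of which the 4 E13.5 samples stand behind these lists. All groups are germ cells of the testis of mice with the Mvh-Venus transgene, a fluorescent reporter under the control of the germ-cell gene Mvh (Ddx4), so both genotypes carry it. The controls were Morc1 (+/-), which still lack 1 copy of the gene, and not wild type, and the knockouts were Morc1 (-/-). The design of the knockout allele and the number of animals per sample are not given in the sources used here. The authors deposited 1 list per stage and genotype with positions only, so no value here has a spread between replicates and no test between genotypes was possible. Intervals are 95% Wilson intervals over peaks and cover counting error only. The depth behind each list is unknown, and the genotype cannot be told apart from a difference in depth or in peak calling between the 2 lists.

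MORC1 is a GHKL-type ATPase of the microrchidia family that is expressed in male germ cells and is needed there for the silencing of transposable elements and for the completion of spermatogenesis. Around E13.5 the germ cells of the fetal testis, called gonocytes or prospermatogonia, are leaving the cell cycle after a genome-wide loss of DNA methylation, and new methylation is laid down from later fetal stages to birth. Open chromatin at this time marks the starts of active and poised genes and the more distant regulatory elements that ATAC-seq also picks up.

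The 5 promoters below are shown because a peak over all or part of the promoter belonged to 1 genotype at 4 germ-cell, stem-cell and retinoic acid genes. The fifth, Ddx4, is a shared reference. Each sequence is the 250 bases before a RefSeq transcription start (GRCm38.p6), read 5′ to 3′ on the minus strand, with matches to the 6 motifs searched in capitals, on either strand. The motifs are the GC box (GGGCGG), the CCAAT box, the E-box (CACGTG), the core of ETS sites (CCGGAA), the site of AP-1 factors (TGANTCA) and a site of GATA factors (AGATAA). Nanos3 is an RNA-binding protein that protects primordial germ cells from death, and its knockout-only peak reached over chr8:84176553-84176802. Rarg is the retinoic acid receptor gamma, with a knockout-only peak over chr15:102257523-102257772. Fkbp6 is a co-chaperone of the piRNA pathway, with a heterozygous-only peak over chr5:135349914-135350163. Gfra1 is the GDNF receptor of spermatogonial stem cells, with a heterozygous-only peak that covered 78 of the 300 bases around the start next to chr19:58455399-58455648. These are the first 78 bases printed, so the peak reached neither the start nor the motifs marked in that sequence. Ddx4 is the germ-cell RNA helicase, with a shared peak over chr13:112652311-112652560.
Nanos3: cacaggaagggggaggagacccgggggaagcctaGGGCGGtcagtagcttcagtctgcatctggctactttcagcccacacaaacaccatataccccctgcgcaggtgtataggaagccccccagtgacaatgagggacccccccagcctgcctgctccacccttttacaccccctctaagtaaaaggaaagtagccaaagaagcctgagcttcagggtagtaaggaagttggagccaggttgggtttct
Rarg: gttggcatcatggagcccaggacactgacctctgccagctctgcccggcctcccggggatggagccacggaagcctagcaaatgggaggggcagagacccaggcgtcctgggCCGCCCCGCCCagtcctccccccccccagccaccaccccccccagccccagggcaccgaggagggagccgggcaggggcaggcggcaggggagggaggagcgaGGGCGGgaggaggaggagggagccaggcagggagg
Fkbp6: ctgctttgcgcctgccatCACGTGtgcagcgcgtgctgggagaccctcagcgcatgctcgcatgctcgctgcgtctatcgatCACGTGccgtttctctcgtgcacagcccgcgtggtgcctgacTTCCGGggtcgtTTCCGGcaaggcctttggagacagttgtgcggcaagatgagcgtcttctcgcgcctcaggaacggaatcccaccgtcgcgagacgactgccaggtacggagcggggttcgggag
Gfra1: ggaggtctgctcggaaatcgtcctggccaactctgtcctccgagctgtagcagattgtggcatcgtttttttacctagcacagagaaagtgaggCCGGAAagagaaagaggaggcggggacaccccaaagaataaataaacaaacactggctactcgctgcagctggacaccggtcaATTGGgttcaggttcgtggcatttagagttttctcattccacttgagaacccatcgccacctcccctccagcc
Ddx4: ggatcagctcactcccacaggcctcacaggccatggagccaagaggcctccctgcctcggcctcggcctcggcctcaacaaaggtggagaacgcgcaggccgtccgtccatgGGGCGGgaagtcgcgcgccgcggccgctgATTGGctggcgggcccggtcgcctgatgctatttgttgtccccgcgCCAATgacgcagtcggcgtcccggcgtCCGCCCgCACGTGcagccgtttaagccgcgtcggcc
Nanos3 had 1 motif match, a GC box, and 3 CpG sites in the 300 bases that run to 50 after the start. Rarg had 3 GC boxes, 2 of which overlap, and 12 CpG sites. Fkbp6 held 2 E-boxes and 2 ETS cores with 32 CpG sites, and Gfra1 held 1 ETS core and 1 CCAAT box with 12. Ddx4 held 2 GC boxes, 2 CCAAT boxes and 1 E-box with 38 CpG sites. A match is a run of letters and not a bound site.

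The lists of the 2 genotypes were close in length, and most peaks were shared. Of the 38566 autosomal peaks in knockout cells, 30946 (80.2%) met a heterozygous peak, and the 7620 knockout-only peaks made up 19.8% (19.4 to 20.2%). Of the 39348 in heterozygous cells 78.6% were shared, and the 8402 heterozygous-only peaks made up 21.4% (20.95 to 21.8%). Knockout-only peaks were thus fewer, 0.907 per heterozygous-only peak (0.879 to 0.935). Each shared peak was counted in both lists, so the difference of 782 private peaks was the difference of 782 peaks in list length. At E16.5 the order was the other way, with 12794 knockout-only against 9714 heterozygous-only peaks, a ratio of 1.32 (1.28 to 1.35), and this difference too was that of the list lengths.

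Few peaks lay near the border between shared and private. Shared peaks overlapped by 1 bp at the least, and 30 of them overlapped by under 50 bp. The median shift between the centres of a shared pair was 27 bp. On the other side, 228 knockout-only peaks (2.99%) and 228 heterozygous-only peaks (2.71%) lay within 500 bp of a peak of the other list. The median gap from a private peak to the other list was 14.99 kb on the knockout side and 19.5 kb on the heterozygous side. The share of private peaks varied by chromosome. The knockout-only share ran from 16.2% on chromosome 19 to 23.4% on chromosome 14, and the heterozygous-only share from 17.1% on chromosome 7 to 24.4% on chromosome 5.

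The targeted gene and the germ-cell markers were looked at first. At Morc1 (gene 17450, chr16:48431237-48630905, GRCm38) the peak at the lower outer end was present in both genotypes and in every later list, and a second peak inside the gene was shared as well. Another peak, at chr16:48606420-48606920 inside the gene, was in the knockout list and in no other list. Peak positions do not show whether the gene's product is lost, so they do not check the genotype labels. Of 6 germ-cell markers, Ddx4, Dazl, Dnd1 and Kit had a shared peak at a gene end, Nanos3 had a knockout-only one and Dppa3 a heterozygous-only one. Dnd1 had a knockout-only peak at its other end as well, so 2 of the 6 had a knockout-only gene-end peak. The shared peak of Dnd1 was in no later list. Shared gene-end peaks were also found at 5 of 12 Sertoli cell markers, 5 of 14 Leydig and interstitial cell markers and 4 of 14 endothelial and blood cell markers, against 11996 of all 20665 autosomal protein-coding genes (58.0%). The part of other cells in the lists was not tested.

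Private peaks of both kinds lay away from genes more often than shared peaks. A peak was placed at a gene end when it met the window of 1000 bp around either outer end of a protein-coding gene, since the gene table gives no strand. Of shared peaks 35.7% lay at a gene end, 30.3% elsewhere in a gene and 34.0% between genes. Of knockout-only peaks 618 (8.11%, 7.52 to 8.74%) lay at a gene end, 42.7% elsewhere in a gene and 49.2% between genes. Of heterozygous-only peaks 508 (6.05%, 5.56 to 6.58%) lay at a gene end, 41.1% in a gene and 52.9% between genes. The knockout-only share at gene ends was the higher of the 2 private sets, and the intervals did not overlap. With all annotated genes the shares at gene ends were 42.2%, 15.1% and 12.5% in the same order of sets.

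**Figure D1:**
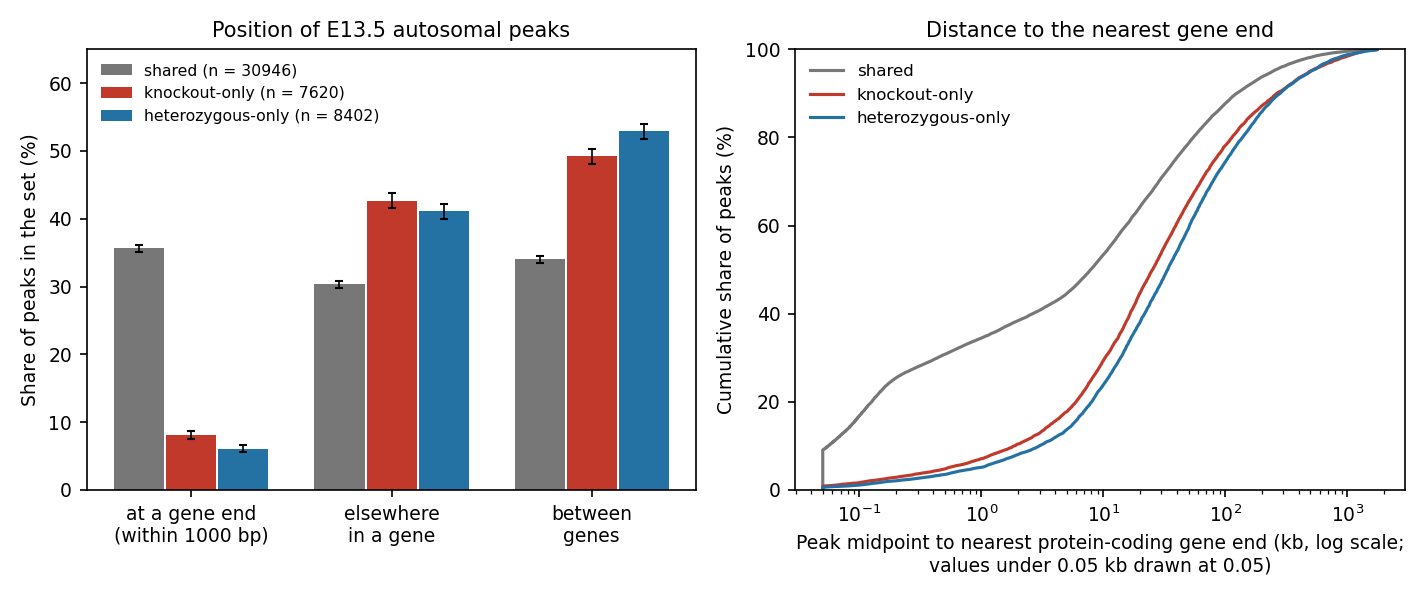
Left, share of shared, knockout-only and heterozygous-only E13.5 autosomal peaks at a gene end, elsewhere in a gene and between genes (bars, percent, with 95% Wilson intervals). Right, cumulative share of peaks (percent) by distance to the nearest protein-coding gene end (kb, log scale): the median is 7.89 kb in the shared, 25.4 kb in the knockout-only and 33.7 kb in the heterozygous-only set.

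The median distances showed the same order. The median distance to the nearest gene end was 7.89 kb (95% interval 7.57 to 8.22 kb) in the shared, 25.4 kb (24.0 to 26.7 kb) in the knockout-only and 33.7 kb (32.2 to 35.1 kb) in the heterozygous-only set. The share more than 50 kb from any gene end was 21.4%, 34.7% and 40.6%. The private sets differed most between 100 and 250 kb, with 11.2% of knockout-only against 14.4% of heterozygous-only peaks, and in the class from 5 to 20 kb, with 27.0% against 24.4%. Against all annotated genes the medians were 3.004, 10.8 and 13.1 kb. Against the transcription starts of the promoter table, which covers 16457 genes, they were 19.5, 48.6 and 62.6 kb. Over 1 Mb from the nearest protein-coding gene the order of the private sets was the other way, with 120 knockout-only (1.57%, 1.32 to 1.88%) and 103 heterozygous-only peaks (1.23%, 1.01 to 1.48%), whose intervals overlapped, beside 143 shared peaks (0.462%). The farthest knockout-only peak, chr14:90600621-90601121, was 2.13 Mb from Pcdh20. The farthest heterozygous-only peak, chr14:82159912-82160412, was 2.14 Mb from Olfm4.

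Private peaks lay farther from others of their own set than shared peaks did. Of shared peaks 25.1% had another shared peak within 10 kb, against 7.52% (573) of knockout-only peaks with another knockout-only peak and 6.61% (555) of heterozygous-only peaks with another of their kind. The median distance to the next peak of the same set was 19.0, 78.7 and 82.5 kb. A smaller set is spaced more widely by its size alone, and the sets held 30946, 7620 and 8402 peaks. These distances therefore cannot show whether private peaks are more scattered, and the part of set size was not tested.

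The 3 genes with the most knockout-only peaks were Pcdh9, Gpc5 and Tenm3, and all 3 held heterozygous-only peaks as well. Each peak was given to its nearest protein-coding gene, which is a label of place and not evidence that the gene is regulated there. Of 20665 genes, 611 had 3 or more knockout-only peaks (2.96%) and 767 had 3 or more heterozygous-only peaks (3.71%), and 237 genes were in both groups. The 611 genes held 32.6% of all knockout-only peaks and had a median length of 134.5 kb, and the 767 held 37.5% of the heterozygous-only peaks with a median length of 150 kb, against 17.5 kb over all genes. Counted by peaks within the gene alone, 192 and 255 genes had 3 or more, and with all annotated genes as possible neighbours 309 and 387. These counts and the genes below are a description of where private peaks fell.

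Pcdh9, a protocadherin (chr14:93013700-93892834), stood first, with 21 knockout-only, 11 heterozygous-only and 17 shared peaks. Gpc5, a glypican of the cell surface, had 16, 10 and 22 in the same order, and Tenm3, a teneurin of synaptic contacts, had 15, 5 and 28. Pcdh20, a further protocadherin, had 14, 9 and 12, and none of its private peaks lay inside the gene. Both sets were present at all 4, and in each the knockout-only count was the higher. The latrophilin Adgrl2 had nearly equal counts, 11 knockout-only and 10 heterozygous-only. Wider gaps were seen at Arrdc3, an arrestin-domain gene, with 11 and 3, at Klhl1, a kelch-like gene, with 10 and 3, at Tafa2, a secreted factor, with 10 and 3, and at Spertl with 10 and 4. Pcdh9, Gpc5, Pcdh20, Klhl1 and Spertl are all on chromosome 14. Among the 10 genes with the most heterozygous-only peaks, Cdh9, a cadherin, had 12 against 6 knockout-only, and Immp2l, a subunit of the mitochondrial inner membrane peptidase, 11 against 3. The latrophilin Adgrl3 had 11 against 6, Magi1, a scaffold of cell junctions, 10 against 4, and Stim2, a calcium sensor of the endoplasmic reticulum, 9 against 3. The contactin-associated genes leaned furthest, Cntnap5b with 10 against 1 and Cntnap2 with 10 against 2. Pcdh9, Gpc5 and Adgrl2 stood among the first 10 for both sets.

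**Figure D2:**
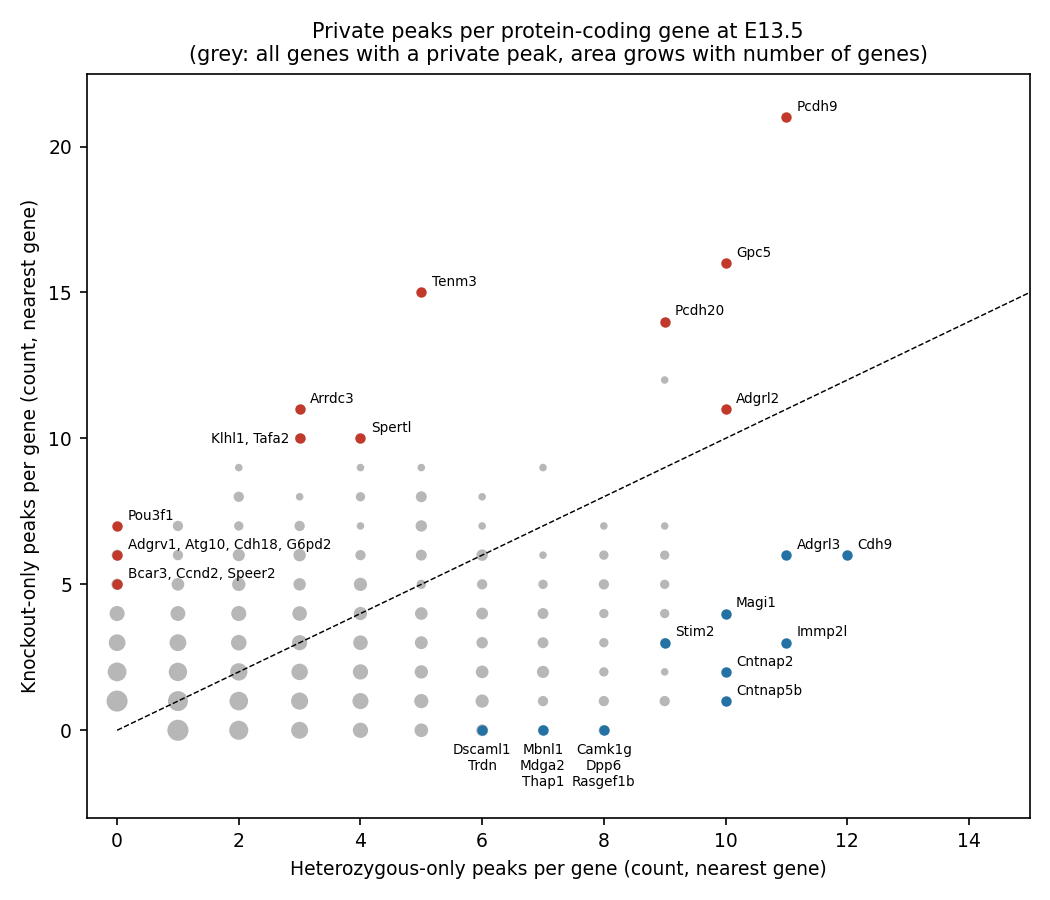
Knockout-only peaks per gene (count, vertical axis) against heterozygous-only peaks per gene (count, horizontal axis) at E13.5, by nearest protein-coding gene; the dashed line marks equal counts and the coloured points are the named genes. Pcdh9 stands highest with 21 knockout-only and 11 heterozygous-only peaks, and Pou3f1 and Rasgef1b stand at 0 on 1 axis with 7 and 8 on the other.

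Some genes had private peaks of 1 genotype alone. Pou3f1, a POU-domain transcription factor of spermatogonial stem cells, led those with 0 heterozygous-only peaks, with 7 knockout-only beside 9 shared peaks. All 7 lay below the gene (chr4:124657646-124660655), from 35.8 to 305 kb away. The autophagy enzyme gene Atg10, the adhesion receptor gene Adgrv1, the cadherin gene Cdh18 and G6pd2, a copy of glucose-6-phosphate dehydrogenase, each had 6 knockout-only peaks. All 6 of G6pd2 lay below the gene, from 652 to 1589 kb away. Bcar3, a signalling adaptor, had 5, of which 4 were inside the gene, and none of the 5 was in any later list. Ccnd2, the G1 cyclin D2, had 5, from inside the gene to 120 kb above it, and 3 of these were in both E16.5 lists. Speer2 had 5.

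On the heterozygous side, Rasgef1b, a guanine nucleotide exchange factor, Camk1g, a calmodulin-dependent kinase, and Dpp6, an auxiliary subunit of potassium channels, each had 8 heterozygous-only and 0 knockout-only peaks. Those of Rasgef1b and Camk1g all lay outside the gene, up to 326 and 578 kb away. The splicing regulator gene Mbnl1, the zinc-finger gene Thap1 and the adhesion gene Mdga2 each had 7. The adhesion gene Dscaml1 and the triadin gene Trdn each had 6. All 6 of Dscaml1 lay within its bounds, while all 7 of Thap1 lay above the gene (chr8:26158169-26164151), from 20.1 to 240 kb away.

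The same genes were then read in the E16.5 lists, which had no part in choosing them. Pou3f1 had 6 knockout-only and 0 heterozygous-only peaks at E16.5. Of its 7 E13.5 knockout-only peaks, 3 were in the E16.5 knockout list and not in the heterozygous one, 1 was in both and 3 were in neither. At Thap1, where E13.5 gave heterozygous-only peaks alone, E16.5 gave 6 knockout-only and 0 heterozygous-only peaks. Several leading genes had near-equal or opposite counts at E16.5: Pcdh9 had 37 knockout-only and 38 heterozygous-only peaks at E16.5, Tenm3 32 and 34, Cntnap5b 17 and 17, and Cntnap2 19 and 10. Other leading genes leaned the same way at both stages. Cdh9 had 22 knockout-only and 31 heterozygous-only peaks at E16.5, Adgrl3 23 and 27, and Stim2 17 and 23. On the knockout side, Adgrv1 had 2 and 0, and Tafa2 had 4 and 2. The 87 genes whose knockout-only peaks exceeded the heterozygous-only ones by 4 or more at E13.5 (531 against 118) had 554 and 573 at E16.5, a ratio of 0.967. The 144 genes with the opposite excess (151 against 854) had 734 and 571, a ratio of 1.29. Over all genes the E16.5 ratio was 1.32. The 237 genes with 3 or more peaks of both sets, 1123 and 1121 at E13.5, had a ratio of 0.961 at E16.5, close to that of the genes with a knockout-only excess.

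**Figure D3:**
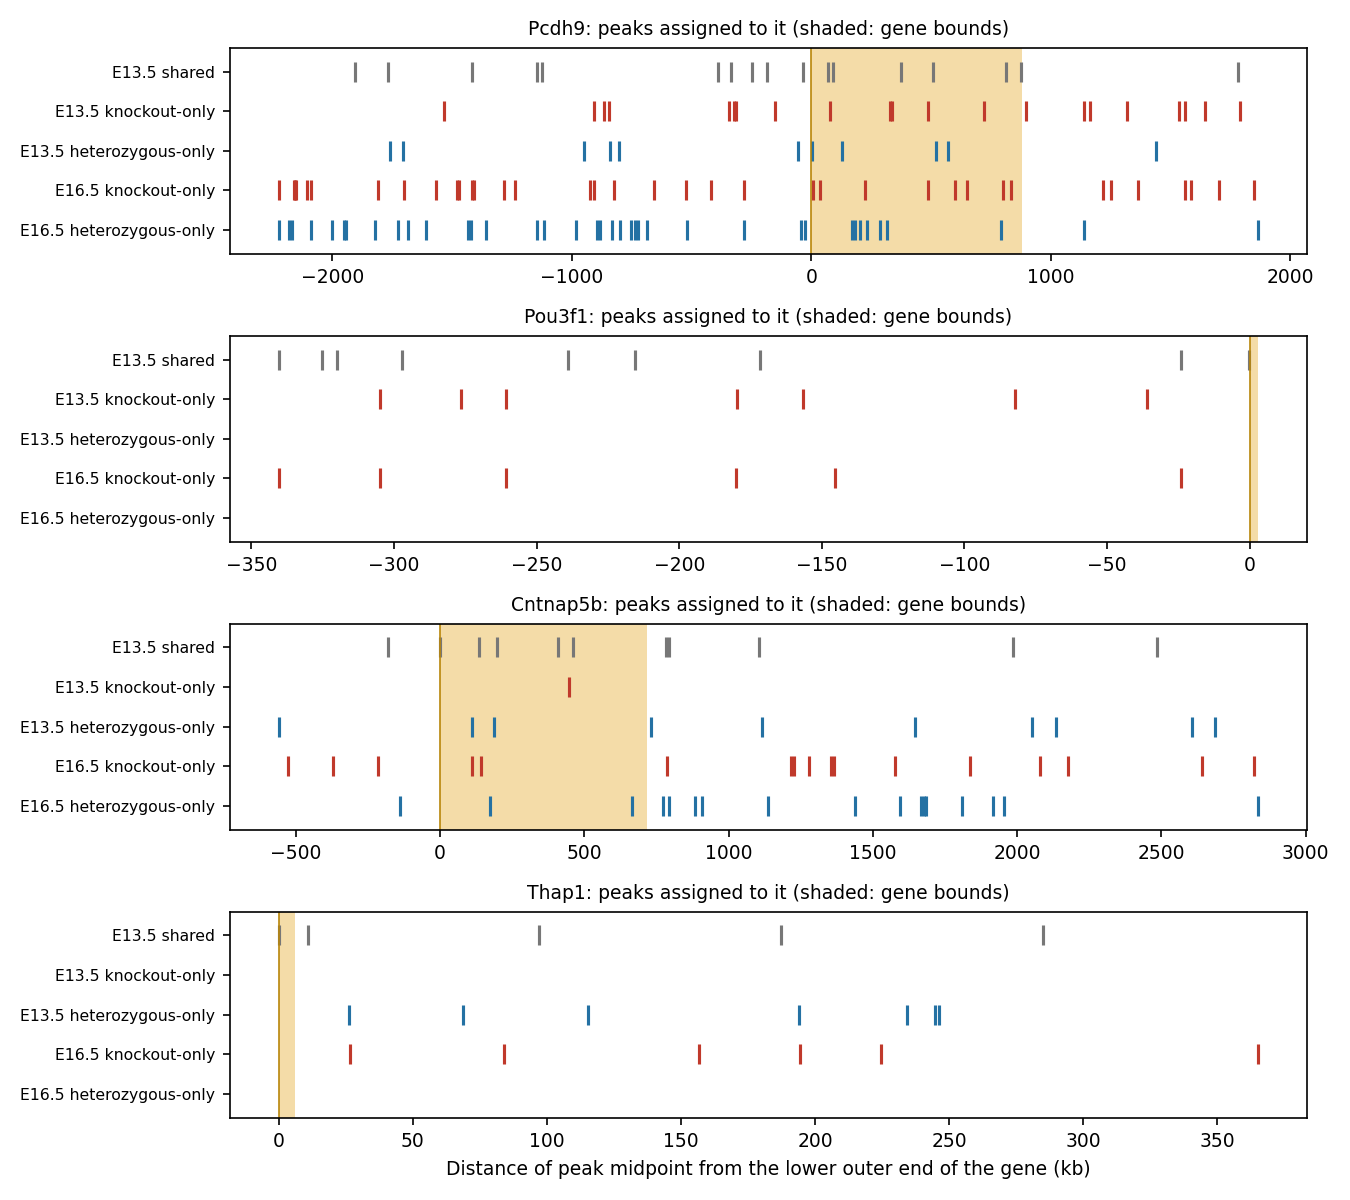
Peaks assigned to Pcdh9, Pou3f1, Cntnap5b and Thap1, each tick 1 peak, by distance of the peak midpoint from the lower outer end of the gene (kb), in rows for the shared and private peaks at E13.5 and the private peaks at E16.5; shading marks the gene. Pou3f1 has 7 knockout-only and no heterozygous-only peaks at E13.5, and E16.5 gives 6 and 0, while Thap1 goes from 7 heterozygous-only peaks at E13.5 to 6 knockout-only peaks at E16.5.

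Private peaks at gene ends were few. A knockout-only peak lay at an end of 674 of the 20665 genes (3.26%) and a heterozygous-only peak at an end of 546 (2.64%). Counting also the inside of the gene, 3040 genes (14.7%) had a knockout-only and 2898 (14.0%) a heterozygous-only peak. In the gene groups that follow, each count is read against these shares. The groups are small, differences between them were not tested, and a single gene moves a share by several percentage points. Longer genes have more room for a peak inside, and gene length was not taken into account.

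Most genes of germ-cell identity kept a shared gene-end peak, and a few had a private one. Of 22 genes, 16 had a shared gene-end peak, 3 a knockout-only one and 1 a heterozygous-only one. The 3 were Nanos3, Dnd1, an RNA-binding partner of the NANOS proteins, and Zfp42 (Rex1), a pluripotency zinc finger. The Nanos3 peak, chr8:84176469-84176969, lay 167 bp from the upper end of the gene and was in no other list. The Dnd1 peak, 72 bp from the upper end, and the Zfp42 peak, 863 bp inside the lower end, were both found in all 4 later lists. Dnd1 and Zfp42 also had a shared peak at their other end. Dppa3 (Stella), which protects the maternal genome from demethylation, had the heterozygous-only peak, chr6:122626157-122626657, 17 bp from its lower end and present again in the P0 list. Inside the gene, Kit, the receptor for stem cell factor, and Esrrb, an orphan nuclear receptor, had a private peak of each genotype, and Alpl, alkaline phosphatase, a knockout-only one.

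Retinoic acid signalling, which triggers entry into meiosis in fetal ovaries and is held off in the fetal testis, had more knockout-only than heterozygous-only peaks at E13.5. Of 18 genes, 7 (38.9%) had a knockout-only peak at an end or inside and 2 (11.1%) a heterozygous-only one. The receptor gene Rarg had its knockout-only peak, chr15:102257416-102257916, 144 bp from the upper end, and that peak was in all 4 later lists. The binding protein gene Crabp2 had one at chr3:87952309-87952809, 813 bp from its upper end, met again at P0 and in the E16.5 lists of both genotypes. Rara, Rarb, Rxrg, the synthetic enzyme gene Aldh1a2 and the retinol dehydrogenase gene Rdh10 had theirs inside the gene. Rarb, with 2, also held 1 heterozygous-only peak, and Rxra held the other. Of the 8 knockout-only peaks, those of Rarg, Crabp2, Rdh10 and Rara were in at least 1 later list. The same lean was not seen at E16.5. There Rara, Rarb, Rxra, Rxrg, Cyp26c1 and Stra6 had private peaks of each genotype at an end or inside. Aldh1a3 had a knockout-only peak alone, and Rarg, Rxrb and Cyp26b1 had heterozygous-only peaks alone.

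Male fate and Nodal signalling genes went the other way. Of 15 genes, 10 had a shared gene-end peak, 0 had a knockout-only peak and 5 (33.3%) had a heterozygous-only peak inside the gene. The 5 were the activin receptor gene Acvr1b, the SMAD genes Smad3 and Smad4, Fgf9, which promotes the male fate, and the receptor gene Fgfr2. None of these 5 peaks was in a later list. At E16.5 Nodal had a knockout-only and Smad3 a heterozygous-only peak at a gene end, and Cyp26b1 had 2 heterozygous-only peaks inside. In the spermatogonial stem cell group, 0 of 15 genes held a knockout-only peak at an end or inside and 3 (20%) a heterozygous-only one, the latter nearer to the 14.0% of all genes. Gfra1 had a heterozygous-only peak at its upper end, chr19:58455571-58456071, found in no later list, and a second inside the gene. The second was in the E16.5 knockout and P0 lists, and not in the E16.5 heterozygous or P3 list. At E16.5 Gfra1 had 2 knockout-only peaks inside the gene and 0 heterozygous-only peaks. The zinc-finger gene Zbtb16 (Plzf) had 2 inside and the paired-box gene Pax7 had 1. The 7 knockout-only peaks assigned to Pou3f1, a member of this group, lay outside the gene and are not in that count.

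The piRNA pathway, which directs methylation of transposons in these cells, had 14 of 22 genes with a shared gene-end peak. A heterozygous-only peak was at an end of 2: Spocd1, which links piRNAs to DNA methylation, at chr4:129928362-129928862, 155 bp from its lower end and in all 4 later lists, and Fkbp6. Fkbp6 had 1 heterozygous-only peak 283 bp from its lower outer end, in no later list. Since Fkbp6 is on the minus strand, that end is the one away from its transcription start. A further one at chr5:135349689-135350189, over the start of the printed Fkbp6 promoter, was met again at P0 and in the E16.5 lists of both genotypes. Tex15 and Rnf17 had a heterozygous-only peak inside the gene, and the Tudor genes Tdrd5 and Tdrd9 a knockout-only one.

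Of 24 meiosis genes, 22 had a shared gene-end peak, 3 a knockout-only peak and 2 a heterozygous-only peak, all inside the gene. Stra8, the retinoic acid target that starts meiosis, held 1 of each. Of 13 DNA methylation genes, 11 had a shared gene-end peak, 1 (7.69%) a knockout-only and 3 (23.1%) a heterozygous-only peak. Dnmt3a, a de novo methyltransferase, had 1 of each, and Tet2 and Mbd4 had a heterozygous-only one. Of 19 genes of H3K9 methylation, heterochromatin and the MORC family, 16 had a shared gene-end peak, 3 a knockout-only peak (Cbx5, Ehmt1 and Morc1) and 2 a heterozygous-only peak (Atf7ip and Pphln1, which had 3). Of 21 cell cycle genes, 17 had a shared gene-end peak, 5 (23.8%) a knockout-only and 3 (14.3%) a heterozygous-only peak. Ccnd3, cyclin D3, had a knockout-only peak at its upper end that was in no later list, and Ccnd2, Cdk6, Rb1 and Rbl2 had knockout-only peaks inside the gene.

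Genes listed as markers of other testis cells also held private peaks, and whether germ cells use these genes too was not tested. Of 12 Sertoli cell markers, 3 had knockout-only peaks (Dmrt1, Ptgds and Fshr, which had 2) and 0 had heterozygous-only peaks. Of 14 Leydig and interstitial markers, 3 had a knockout-only and 5 a heterozygous-only peak. At Tcf21 a knockout-only and a heterozygous-only peak lay side by side at the upper end without touching, so each was counted as private. Of 14 endothelial and blood markers, 2 had a knockout-only and 4 a heterozygous-only peak. No peak at an end or inside was found at 6 of these 14, 4 of the Leydig and interstitial and 3 of the Sertoli markers. Over all 20665 genes, 5701 had no such peak.

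**Figure D4:**
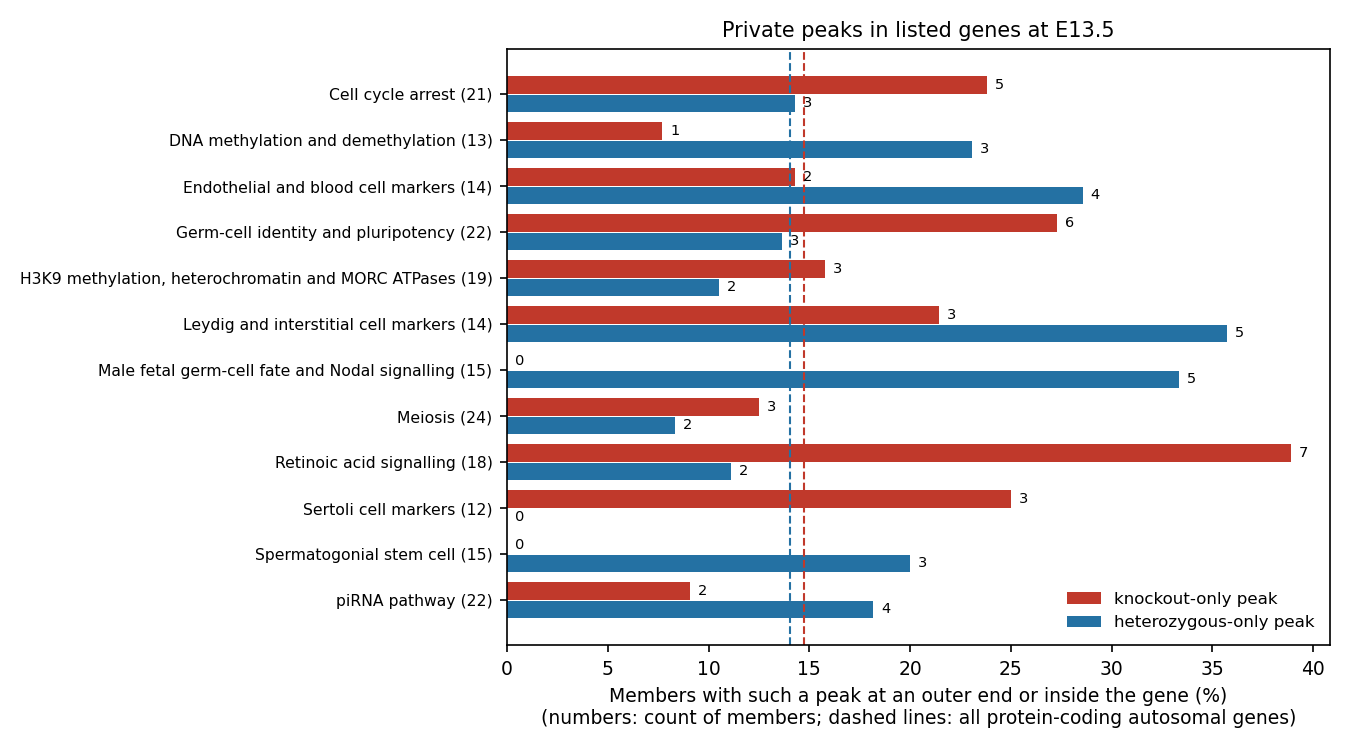
Share of the members of 12 gene groups (percent; number of autosomal members in brackets) with a knockout-only or a heterozygous-only peak at an outer end or inside the gene, with the count of such members at each bar. The dashed lines give the shares over all autosomal protein-coding genes, 14.7% and 14.0%; retinoic acid signalling had 7 members with a knockout-only peak, and male fate and Nodal signalling had 0 with a knockout-only and 5 with a heterozygous-only peak.

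Genes with a private gene-end peak at E13.5 more often had a private gene-end peak of either genotype at E16.5 than genes in general did. Over all 20665 genes, 897 (4.34%) had a knockout-only and 671 (3.25%) a heterozygous-only gene-end peak at E16.5. Of the 674 genes with a knockout-only gene-end peak, 99 (14.7%) had a knockout-only and 93 (13.8%) a heterozygous-only gene-end peak at E16.5. Of the 546 genes with a heterozygous-only one, 49 (8.97%) had a heterozygous-only and 75 (13.7%) a knockout-only one at E16.5. The same region was private to the knockout at both stages at 73 of the 99 genes, and to the heterozygote at 28 of the 49. Without genes that also had a private gene-end peak of the other genotype at either stage, these counts were 65 and 18. How often the same region was private to the other genotype at E16.5, among the 93 and 75 genes, was not counted. The same-region counts thus have nothing to be set against and do not show that the genotype was kept. Among the 10 knockout genes named by the most private peaks, the region was the same at Gramd3, at Paqr8, a membrane progestin receptor, at the adenylate cyclase gene Adcy5, at the tetraspanin gene Cd82, at the rhodopsin kinase gene Grk1, at Hspa12b and at the cytokine gene Il17b. At Ank, Bcl9l and Esr2, the oestrogen receptor beta, the E16.5 peak was elsewhere. On the heterozygous side the region was the same at Nr2f1, a nuclear receptor, at Tecrl, at the potassium channel gene Kcnk9, at the chemokine gene Ccl20 and at Prcc, and elsewhere at Pdzrn3, Cachd1, Adcy8, Cebpb and Spata16. Nr2f1, Pdzrn3, Adcy8 and Cebpb also had a knockout-only gene-end peak at E13.5, as Bcl9l and Esr2 had a heterozygous-only one.

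Many private peaks were never met again: 54.0% of knockout-only and 56.3% of heterozygous-only peaks were in no later list. Of shared E13.5 peaks 76.6% were met in at least 1 list of E16.5, P0 or P3, against 46.0% of knockout-only and 43.7% of heterozygous-only peaks. In all 4 later lists the shares were 53.8%, 13.2% and 13.8%. At E16.5, the heterozygous list met 27.5% of knockout-only and 26.2% of heterozygous-only peaks, and the knockout list met 30.4% and 29.6% of them. Both private sets were thus met a little more often in the knockout list, which is the longer, with 54786 against 51706 autosomal peaks. Recurrence followed position: in any later list, private peaks at gene ends recurred at 67.2% (knockout-only) and 63.8% (heterozygous-only), those inside genes at 36.5% and 35.3%, and those between genes at 50.7% and 47.9%.

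The genotype that held a peak at E13.5 was not matched at E16.5. Among knockout-only peaks found in exactly 1 E16.5 list, 634 of 1043 (60.8%, 57.8 to 63.7%) were in the knockout list. Among heterozygous-only peaks the figure was 655 of 1023 (64.0%, 61.0 to 66.9%), and among shared peaks 1925 of 2908 (66.2%, 64.5 to 67.9%). The intervals of the 2 private sets overlapped, and the heterozygous-only value was the higher.

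**Figure D5:**
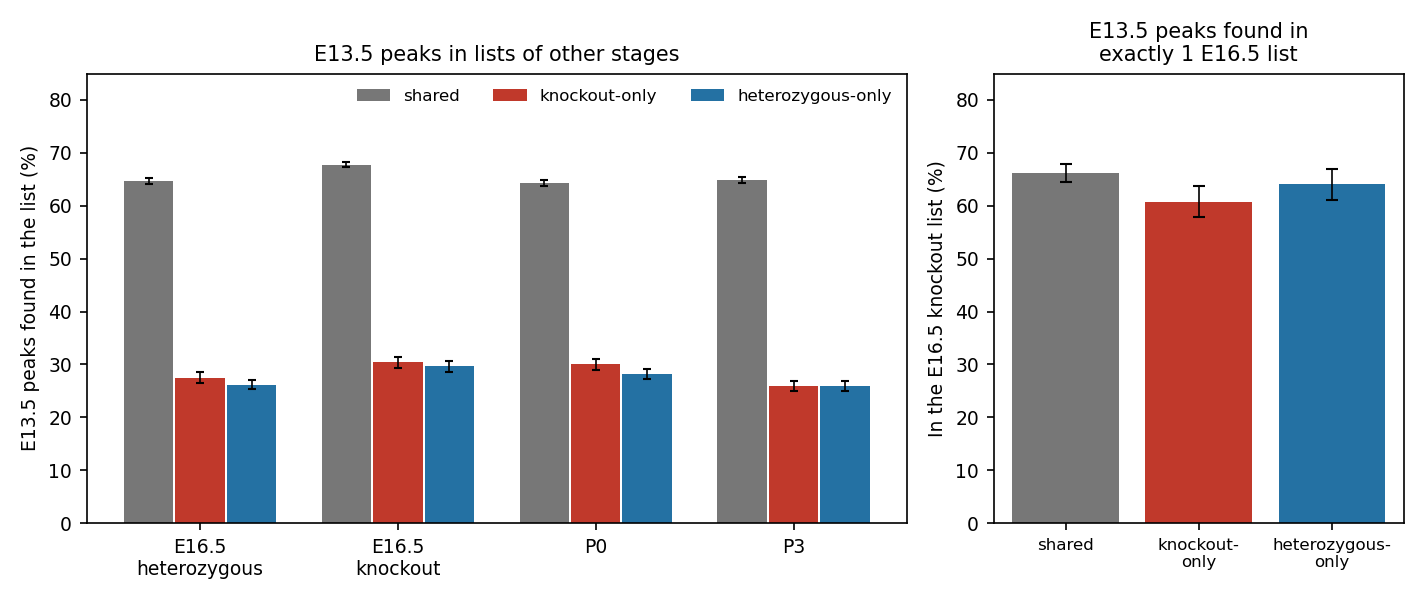
Left, share of shared, knockout-only and heterozygous-only E13.5 peaks (percent, bars with 95% Wilson intervals) met in each later list (E16.5 by genotype, P0 and P3). Right, share in the knockout list among E13.5 peaks found in exactly 1 E16.5 list, 66.2% in the shared, 60.8% in the knockout-only and 64.0% in the heterozygous-only set (percent, same intervals).

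Promoters overlapped by private peaks differed in sequence from those overlapped by shared peaks. The promoter table holds 20085 promoters of 300 bases, from 250 before to 50 after the start. A shared peak overlapped 10349 of them, a knockout-only peak 269, a heterozygous-only peak 220 and no peak 9242, and 5 had a private peak of each genotype. The median GC content was 62.7% under shared, 59.3% under knockout-only and 56.7% under heterozygous-only peaks, and 49.0% where there was no peak. The median number of CpG sites was 23, 14, 10 and 4. Over all promoters the medians were 57.0% and 14.

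The GC box and the ETS core were less frequent under private than under shared peaks, with intervals that did not overlap. The GC box GGGCGG was in 71.2% of promoters under shared, 52.8% under knockout-only and 45.5% under heterozygous-only peaks, in 19.8% of those with no peak, and in 47.0% of all. The ETS core CCGGAA was in 29.7%, 14.5%, 14.1% and 7.51%, and in 19.1% of all. The E-box CACGTG was in 10.6%, 8.92% (6.07 to 12.9%), 8.18% (5.24 to 12.6%) and 4.77%, and in 7.89% of all, and both private intervals held the shared value. The GATA site AGATAA was in 4.77% (4.38 to 5.20%), 5.20% (3.13 to 8.55%), 9.55% (6.33 to 14.2%) and 15.1%, and in 9.57% of all, so that the heterozygous-only interval lay above the shared one and the knockout-only interval held the shared value. The AP-1 site TGANTCA was in 3.81% (3.46 to 4.19%), 6.69% (4.27 to 10.3%), 6.36% (3.83 to 10.4%) and 10.7%, and in 7.06% of all. Its knockout-only interval lay above the shared one, and its heterozygous-only interval overlapped the shared one. CCAAT was in 39.3% (38.4 to 40.3%), 27.1% (22.2 to 32.7%), 32.3% (26.4 to 38.7%) and 37.3% (36.3 to 38.2%), and in 38.1% of all. The knockout-only CCAAT interval lay below those of shared peaks and of no peak, and the heterozygous-only one overlapped both. The 5 promoters printed above span the range from the 38 CpG sites of Ddx4 to the 3 of Nanos3.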

How the data were processed

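ATAC-seq peaks of E13.5 germ cells were taken from 2 of the 8 lists the authors deposited, 1 per stage and genotype. Per the submitters' processing notes, bcl2fastq 2.20, cutadapt 1.18, Bowtie2 2.3.4.1, deepTools 3.5.0 and HOMER 4.10 were used on build mm10. Their roles and settings, the peak threshold, the handling of duplicate reads and any pooling of replicates before calling are not given in the sources used here. The deposited files hold chromosome, start and end of each peak and no other value, and nearly all peaks are 501 bp wide, so a weak and a strong peak count alike. The 2 deposited P0 lists were identical, as were the 2 P3 lists, and each pair was used once, which left 6 distinct lists. Read depth is unknown.

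From the files, overlaps (1 bp), nearest protein-coding genes (20665 autosomal genes of a RefSeq GRCm38.p6 gene table with outer ends and no strand), distances from peak midpoints to gene ends and Wilson intervals were computed in Python 3.11.15 with pandas 2.3.3 and scipy 1.17.1. Intervals of medians come from binomial ranks. The code was tested on simulated data, and overlap counts were checked with bedtools 2.31.1. No test between genotypes was made, since each genotype has 1 list. Promoter and miRNA sequences are from RefSeq (GRCm38.p6); 16457 of the 20665 genes (79.6%) have a promoter entry, under 80%, so transcription starts served only for the sequences and as an added alternative. The planned starts were replaced by both outer ends.

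Named genes are Morc1, the 10 genes with the most knockout-only and the 10 with the most heterozygous-only peaks, the 8 with the most of either among genes with 0 of the other, genes with a gene-end peak private to the same genotype at E13.5 and E16.5 (up to 10 each), and members of the 12 gene groups with a private gene-end peak. 1 gene that the rule selects is not reported here. Other group members were named after their values were seen. The comparison, the gene groups and the rules were chosen with earlier results of these data known. Alternatives were a reciprocal overlap of 50%, a 500 bp tolerance, merged peaks, all chromosomes, a 500 bp gene-end window, all annotated genes and peaks within gene bounds only.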

Additional observations from a re-analysis of the deposited data

How the results depend on the processing

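Of 69 recomputed values 38 moved by less than their interval or, for counts, by less than 1.5 times, 31 moved by more and 0 reversed. In every setting run for them, knockout-only peaks had a higher gene-end share and a smaller median distance than heterozygous-only peaks. With a reciprocal overlap of 50%, knockout-only and heterozygous-only peaks made up 20.8% and 22.4% of their lists and lay at gene ends at 9.41% and 7.41%. In that setting knockout-only peaks were found at 26.03% in the E16.5 heterozygous, 29.0% in the E16.5 knockout and 27.9% in the P0 list, and heterozygous-only peaks at 27.0% at P0. With peaks within 500 bp counted as shared, the list shares were 19.2% and 20.8% and the gene-end shares 7.49% and 5.40%. With all annotated genes, gene-end shares of shared, knockout-only and heterozygous-only peaks were 42.2%, 15.1% and 12.5%, median distances 3.004, 10.8 and 13.1 kb, and genes with 3 or more private peaks 309 and 387. With a 500 bp window the gene-end shares were 33.0%, 6.02% and 4.57%. Within gene bounds only, 192 and 255 genes had 3 or more. Against the transcription starts of the promoter table, added after seeing the data and without chromosome 18, the shares were 31.6%, 5.06% and 3.68% and the medians 19.5, 48.6 and 62.6 kb. All chromosomes (14 values) moved none. Merging peaks within 500 bp returned the main values to every digit. Its 3 values, which are among the 38, therefore do not show stability. More genes or fewer starts change what a nearest gene end is; other causes were not tested. A stricter peak threshold and leaving out a replicate were not run, since the lists hold no score and no sample. No paired analysis was possible because the peaks of both replicates of a group are given as 1 list, with no replicate number to pair. Depth is unknown, so a peak absent from a list may be a site under its threshold.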

Other observations

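Private shares near the genes of 8 families, chosen after the values were seen, are given beside those of all autosomal peaks, 19.8% knockout-only and 21.4% heterozygous-only. Peaks nearest to 95 cadherin-superfamily genes, which mediate cell adhesion, were knockout-only for 149 of the knockout peaks (37.6%, 33.0 to 42.5%) and heterozygous-only for 114 of the heterozygous peaks (31.6%, 27.0 to 36.5%), with 247 shared. The 2 cadherin intervals overlapped. Glutamate receptor genes had 25 knockout-only (18.5%, 12.9 to 25.9%) and 56 heterozygous-only peaks (33.7%, 27.0 to 41.2%) over 26 genes and 110 shared peaks. Solute carriers had 150 (18.8%) and 205 (24.2%). The Zfp-named zinc finger genes had low shares of both, 104 (14.6%) and 93 (13.3%) beside 607 shared peaks. Olfactory receptor genes, which lie in dense clusters, had 48 (33.6%) and 60 (38.7%). Hox genes had 13 (41.9%, 26.4 to 59.2%) and 10 (35.7%, 20.7 to 54.2%). Vomeronasal receptor genes had 15 (20.5%, 12.9 to 31.2%) and 8 (12.1%, 6.27 to 22.1%). Potassium channel genes had 73 (23.6%, 19.2 to 28.7%) and 84 (26.3%, 21.7 to 31.3%). The Hox heterozygous-only, both vomeronasal and the potassium channel knockout-only intervals held the share of all autosomal peaks.

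Private peaks near miRNA hairpins, also looked at after seeing the data, were few: of 919 autosomal hairpins, 88 had a shared peak within 500 bp, 16 a knockout-only and 10 a heterozygous-only one. A single knockout-only peak, chr16:77598743-77599243, in no later list, was within reach of 2 hairpins, those of miR-99a and let-7c. A heterozygous-only peak at chr3:118434260-118434760, present in both E16.5 lists, lay beside the hairpin of miR-137. One at chr1:162217461-162217961, present in the E16.5 knockout, P0 and P3 lists, lay over that of miR-199a. Their mature sequences (RefSeq, GRCm38.p6, plus strand) are given with the seed, bases 2 to 8, in capitals, and no seed is common to any pair of them.
miR-99a-5p: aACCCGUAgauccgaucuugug
let-7c-5p: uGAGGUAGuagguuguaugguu
miR-137-3p: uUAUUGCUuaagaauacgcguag
miR-199a-5p: cCCAGUGUucagacuaccuguuc

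The balance of the private sets varied along the chromosomes. In 384 windows of 5 Mb with 25 or more private peaks, the knockout-only share of private peaks ran from 16.1% to 75%, with a median of 46.9% and 47.6% over all autosomes. The lowest was on chromosome 10 from 25 to 30 Mb, with 5 knockout-only and 26 heterozygous-only peaks, and the same window had 20 and 7 at E16.5. The highest was also on chromosome 10, from 80 to 85 Mb, with 33 and 11, and 32 and 19 at E16.5. The 30 windows with a knockout-only share under one part in 3 held 288 knockout-only and 732 heterozygous-only peaks at E13.5, while the E16.5 lists gave 714 and 417 there, a ratio of 1.71. The 20 windows in which knockout-only peaks were more than double the heterozygous-only ones held 550 and 237 at E13.5, against 560 and 432 in the E16.5 lists, a ratio of 1.30.

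The surroundings of Morc1 held private peaks at shares whose intervals included those of all autosomes. Within 5 Mb on each side of the gene there were 93 shared, 24 knockout-only (20.5%, 14.2 to 28.7%) and 32 heterozygous-only peaks (25.6%, 18.8 to 33.9%). Within 1 Mb there were 12, 3 and 2.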
